A study of Mus musculus with 9 samples.

Results

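Libraries of NIH/3T3 cells that had received both UVA and α-arbutin were compared here with libraries of unirradiated cells, across all expressed genes. The comparison uses 6 of the 9 libraries of the series, chosen by their treatment labels, and 14151 of the 56691 genes in the table had enough counts to be tested. NIH/3T3 is an established line of mouse embryonic fibroblasts, labelled as wild type in every library, and the cells were grown in DMEM with 10% fetal bovine serum. The 3 control libraries come from cells whose treatment field holds only a slash. The 3 co-treated libraries were made after UVA at 10 J/cm2 with added α-arbutin. The remaining 3 libraries, made after UVA at 10 J/cm2 without α-arbutin, are titled MOCK although their treatment field gives the UVA dose. They serve here to place each co-treated value. For the dose of α-arbutin, its timing relative to UVA and the time of harvest the labels give no value. Nor do they say that libraries of a group came from separate cultures, so the p-values measure the spread between these libraries, which may be technical. No library of cells given α-arbutin without UVA was analysed here, so in this comparison UVA and α-arbutin cannot be told apart. The submitters' stated interest is whether α-arbutin guards against photodamage, above all in the making of collagen and the repair of DNA. An RNA library measures the summed message of a culture, in which fewer cells of a type and less RNA per cell cannot be told apart.

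UVA is the long-wave part of ultraviolet light. It reaches the dermis, where it acts largely through light-absorbing molecules that pass energy on to oxygen, and the reactive oxygen species formed oxidise lipids, proteins and DNA. Dermal fibroblasts make the fibrillar collagens of skin, and loss of collagen is a known mark of sun-exposed skin. Cells meet oxidants with the transcription factor NRF2, which binds antioxidant response elements and raises genes of glutathione and thioredoxin metabolism, and they meet DNA damage with p53 and with the repair pathways. α-Arbutin is a glucoside of hydroquinone that is used in cosmetics for its inhibition of tyrosinase, the pigment enzyme.

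Control libraries held 17111704 to 20862894 counts and co-treated libraries 16400055 to 18155086, and 21043 to 21815 genes had at least 1 count in each of these 6. Mitochondrially encoded genes held 3.519 to 3.718% of counts in control and 3.757 to 4.011% in co-treated libraries. Levels are given as CPM, a gene's counts per 1000000 counts of its library after scaling between libraries, and they can be compared between libraries for 1 gene. Fibroblast markers were abundant in both groups, with a summed level of 6217 to 6289 CPM in control and 5876 to 5985 CPM in co-treated libraries. Of 13 listed markers 11 were tested, and Fap and Lum were too low. Vim, an intermediate filament gene, and Cd44, a hyaluronan receptor gene, were higher in co-treated cells, while 7 markers were lower, among them Pdgfra, Thy1 and Col1a1. Markers of other cell types were near the floor of the data: epithelial markers summed to at most 2.93 CPM in any of the 6 libraries, immune markers to at most 11.1, muscle markers to at most 8.17, melanocyte markers to at most 8.43 and endothelial markers to at most 7.41. Defining genes among them, such as Epcam, Krt5 and Krt14 (epithelium), Pecam1 and Kdr (endothelium), Cd3e (T cells), Myod1 (muscle) and Tyr (melanocytes), were too low to test. Of the lists, 3 epithelial, 1 endothelial, 2 immune, 2 muscle and 3 melanocyte markers had no count in any of the 6 libraries. Adipocyte markers summed to 40.2 to 41.9 CPM in control and 19.6 to 22.3 CPM in co-treated libraries, mostly from Lpl, and their defining genes Adipoq, Plin1, Pparg and Cebpa were too low to test. Their part in the results below was not tested.

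Co-treated cells differed from control cells in 3657 of 14151 tested genes, or 25.8% (edgeR quasi-likelihood test, Benjamini-Hochberg adjusted p under 0.05 over all tested genes, called here a call). Of these, 1834 genes were higher (13.0% of those tested) and 1823 were lower (12.9%). Most calls were of small size: 142 higher and 208 lower genes differed by at least 2-fold, and 79.3% of the higher and 68.3% of the lower genes differed by less than 0.5 on the log2 scale. The median log2 fold change was 0.28 over the higher and -0.34 over the lower genes. The libraries of the 2 groups did not overlap in 5618 genes (39.7%), called or not. In the same fit, UVA-only cells differed from the same control libraries in 4142 genes (29.3%), 2078 higher and 2064 lower. The 2 comparisons share the control libraries, so a likeness between them is partly built in, and their values are set side by side below without a test of likeness. The direct test of co-treated against UVA-only libraries, which is the test of whether the effects against control differ, called 5 genes (0.0353%).

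**Figure D1:**
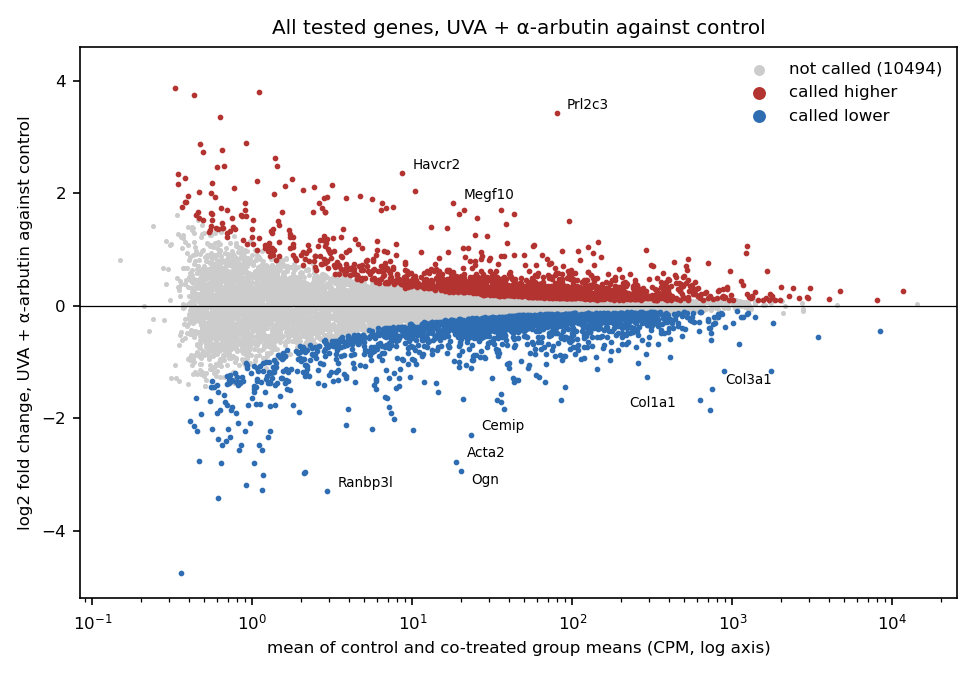
Each point is 1 of 14151 tested genes, with its mean level in control and co-treated cells on the x axis (CPM, log axis) and its log2 fold change, co-treated against control, on the y axis; red and blue points passed the test. The 1834 higher and 1823 lower genes lie on either side of 0, and the decreases among abundant genes include Col1a1 and Col3a1.

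The largest increases among genes with at least 5 CPM in the higher group and no overlap between groups were those of a placental hormone gene and a set of surface and enzyme genes. Prl2c3, a member of the proliferin family of prolactin-related growth factors, stood at 10.7, 14.8 and 14.9 CPM in the control libraries and at 135, 143 and 160 CPM in the co-treated libraries. This is a log2 fold change of 3.43 ± 0.11 (SE; 10.8-fold, edgeR adjusted p = 6.9e-19), with every co-treated library far above every control library. UVA-only libraries stood at 134, 126 and 180 CPM, around the same level. Prl2c3 lies at chr13:12805705-12814968 on the minus strand (mm39). Prl2c2, a near-identical relative at a higher level, was 2.08-fold higher (1.06 ± 0.05, edgeR adjusted p = 1.05e-15). Reads that fit several Prl2c copies could be split or dropped in counting, so the share of each copy is uncertain. Havcr2, which encodes the immune checkpoint receptor TIM-3, stood at 3.19, 2.92 and 2.39 CPM in control and at 13.2, 14.0 and 16.1 CPM in co-treated libraries (2.36 ± 0.18, edgeR adjusted p = 3.1e-11). The other large increases were those of Selp, the adhesion receptor P-selectin (2.04 ± 0.24), Padi2, a protein-citrullinating enzyme (1.95 ± 0.19), Acsbg1, an acyl-CoA synthetase (1.92 ± 0.22), Col17a1, a transmembrane collagen (1.9 ± 0.20), Id4, an inhibitor of helix-loop-helix factors (1.83 ± 0.16), and Megf10, a receptor for engulfment (1.82 ± 0.13). These genes were low in control cells, at 1.18 to 8.86 CPM per library. Their lack of overlap between control and co-treated libraries is set by the rule that chose them.

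The largest decreases by the same rule were those of a matrix proteoglycan gene, a contractile gene and a set of genes of other kinds. Ogn, the small leucine-rich proteoglycan osteoglycin, stood at 36.7, 34.1 and 35.9 CPM in control and at 6.35, 4.75 and 2.88 CPM in co-treated libraries (-2.94 ± 0.15, edgeR adjusted p = 1.06e-14). Acta2, smooth muscle α-actin and the standard mark of myofibroblasts, stood at 35.3, 31.5 and 32.1 CPM in control and at 4.27, 6.03 and 4.15 CPM in co-treated libraries (-2.77 ± 0.12, edgeR adjusted p = 4.96e-16). Acta2 lies at chr19:34218490-34232990 on the minus strand (mm39). Cemip, a gene for hyaluronan breakdown, stood at 36.9, 39.2 and 39.8 CPM in control and at 8.18, 8.40 and 7.13 CPM in co-treated libraries (-2.29 ± 0.11, edgeR adjusted p = 9.88e-16). In each of these 3 genes, chosen for no overlap, the co-treated libraries lay far below every control library. Ranbp3l, a nuclear export factor of BMP-activated Smads, fell from 3.14 to 6.46 CPM to 0.427 to 0.663 CPM (-3.29 ± 0.33), with control replicate 2, at 3.14 CPM, well below the other control libraries. Adgrf1, an adhesion G protein-coupled receptor (-2.20 ± 0.13), Tmem119 (-2.19 ± 0.20), the growth factor Ptn (-2.12 ± 0.24) and the receptor Mrgprf (-2.02 ± 0.21) completed the set. Ogn overlaps Cenpp, which is on the other strand and at 7.77 CPM on average, and whether the counting used strand is not stated.

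**Figure D2:**
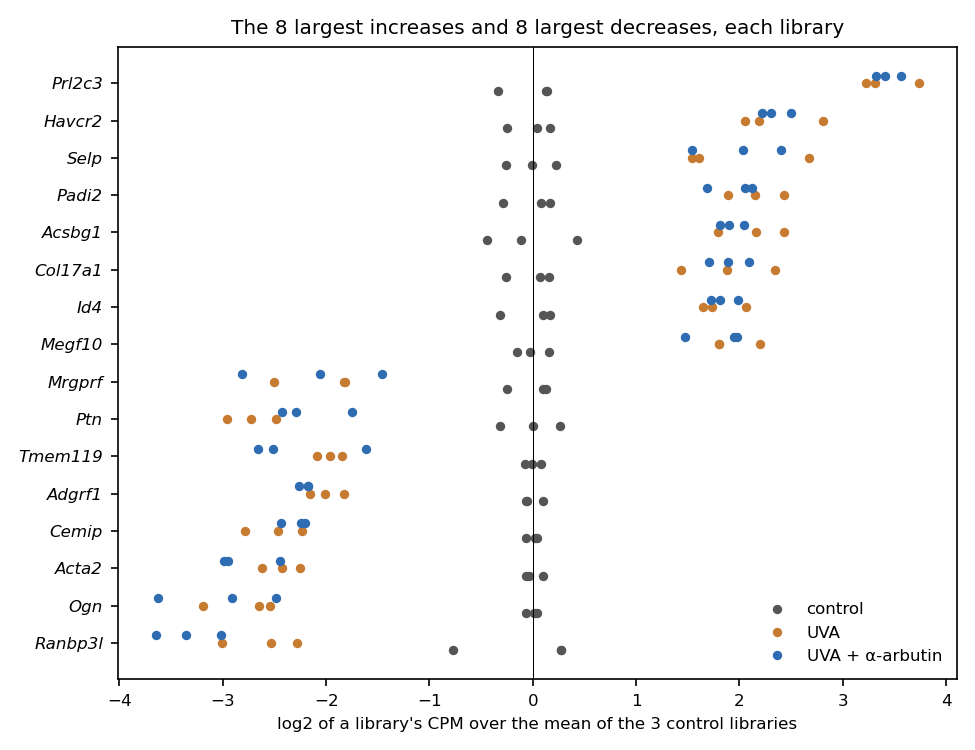
Each point is 1 library, placed by the log2 of its CPM over the mean of the 3 control libraries, for the 8 largest increases and 8 largest decreases between co-treated and control cells. Co-treated (blue) and UVA-only (orange) libraries lie on the same side of the control libraries in all 16 genes. For the co-treated libraries, lack of overlap with control is set by the rule of choice.

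Collagen chains were lower as a group. Of 21 listed chains 17 were tested, of which 11 were lower and 2 higher, beside 12.9% lower and 13.0% higher over all tested genes. The median log2 fold change was -0.78 against 0.00 over all tested genes. Col1a1, a chain of type I collagen, the main collagen of skin, stood at 939, 968 and 965 CPM in control and at 343, 303 and 253 CPM in co-treated libraries. No co-treated library came near a control library, and the decrease was 3.20-fold (-1.68 ± 0.07, edgeR adjusted p = 4.71e-16). Col1a2, the partner chain of type I collagen, stood at 2278, 2469 and 2426 CPM in control and at 1193, 1084 and 956 CPM in co-treated libraries, a decrease of 2.22-fold (-1.15 ± 0.07, edgeR adjusted p = 8.63e-14). Col3a1, the chain of type III collagen, went from between 1085 and 1127 CPM to between 368 and 438 CPM (-1.47 ± 0.05, edgeR adjusted p = 1.26e-17). The 3 genes lie at chr11:94827050-94843868 (Col1a1), chr6:4504814-4541544 (Col1a2) and chr1:45350698-45388866 (Col3a1) in the count table's build, mm39, all on the plus strand. On the scale that corrects for gene length (FPKM), Col1a2 was the most abundant of these 3 in both groups, at a mean of 193 in control and 86.6 in co-treated cells. Col1a1 fell from 146 to 45.6 FPKM and Col3a1 from 113 to 40.5 FPKM, so the order of the 3 chains was the same in both groups.

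The minor fibrillar chains went the same way. Col5a2 fell by 1.26 ± 0.06 on the log2 scale and Col5a1 by 0.81. Col11a1, a cartilage-type chain that is low here, fell by 1.63 ± 0.17, and Col12a1, a chain that decorates fibrils, fell by 1.56 ± 0.11. The microfibril chains Col6a2, Col6a1 and Col6a3 fell by 0.78, 0.48 and 0.28. Basement membrane collagen went the other way: Col4a1 stood at 417, 380 and 413 CPM in control and at 562, 585 and 594 CPM in co-treated libraries (0.52 ± 0.04, edgeR adjusted p = 6.74e-11), and its neighbour Col4a2 was 0.30 ± 0.04 higher. The 2 type IV genes lie head to head on opposite strands and overlap. Col7a1, Col8a1, Col16a1 and Col27a1 did not pass the test, at values from -0.08 to 0.00.

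For these collagens the co-treated and UVA-only values against control were close. UVA-only libraries stood at 313, 317 and 249 CPM for Col1a1, and the co-treated minus UVA-only difference was 0.03 on the log2 scale with a 95% interval of -0.12 to 0.18, against a decrease of 1.68 from control. For Col1a2 the difference was 0.04 (95% interval -0.09 to 0.18) and for Col3a1 -0.08 (95% interval -0.19 to 0.03). None of the 17 tested chains was called between co-treated and UVA-only cells, where the list's median difference was 0.03. For UVA-only against control cells the count was also 11 chains lower and 2 higher, beside 29.3% of all tested genes called.

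**Figure D3:**
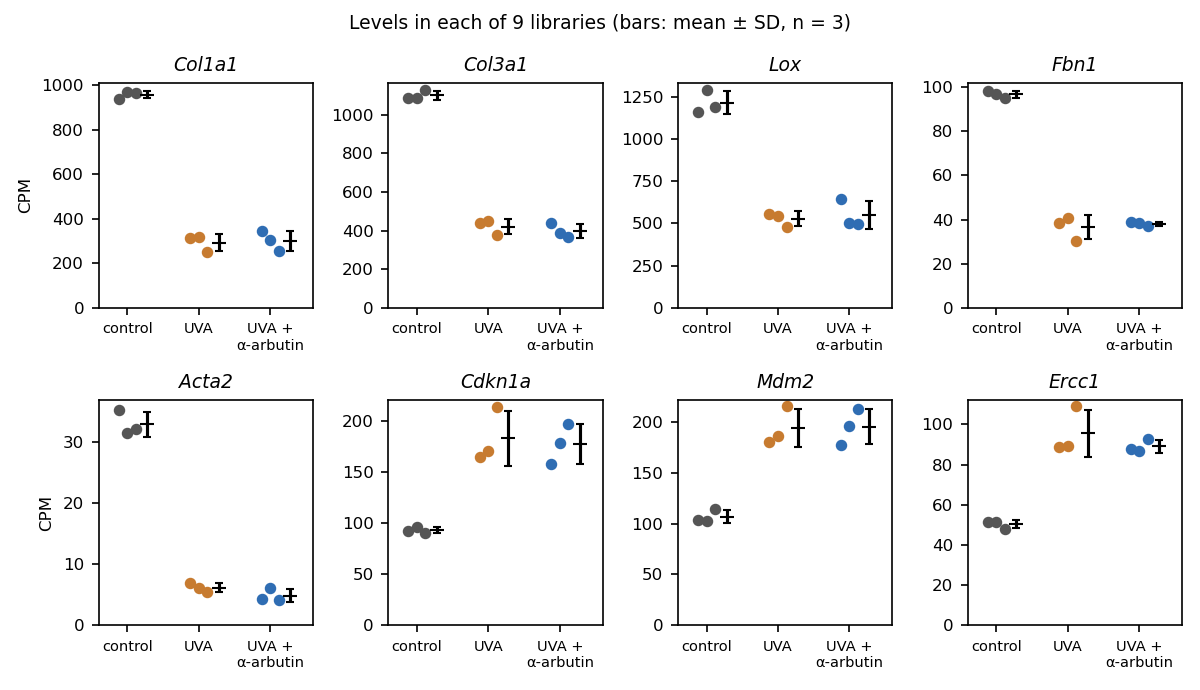
Levels (CPM, axes from 0) of 8 genes in each of the 3 control, 3 UVA-only and 3 co-treated libraries, with mean ± SD beside the points. Co-treated libraries lie below every control library for Col1a1, Col3a1, Lox, Fbn1 and Acta2 and above every control library for Cdkn1a, Mdm2 and Ercc1.

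Genes that process, fold and crosslink collagen were mostly lower. Of 29 listed 26 were tested, 14 were lower and 2 higher, and the median was -0.21. The shares over all tested genes were 12.9% lower and 13.0% higher. Adamts2, the protease that removes the amino-terminal propeptide of procollagen, stood at 55.3, 61.4 and 58.0 CPM in control and at 18.2, 16.9 and 13.9 CPM in co-treated libraries (-1.84 ± 0.08, edgeR adjusted p = 5.77e-16). Lox, the lysyl oxidase that starts crosslinks, stood at 1161, 1290 and 1191 CPM in control and at 646, 501 and 499 CPM in co-treated libraries (-1.15 ± 0.07, edgeR adjusted p = 9.69e-14). Both lay below control in every co-treated library. Loxl1, a relative active on elastin, fell by 0.92 ± 0.05, and P4ha1, a subunit of the prolyl hydroxylase that stabilises the triple helix, by 0.75 ± 0.05. The collagen chaperone gene Serpinh1 fell by 0.43 ± 0.04. The 2 higher members were Loxl3 (0.33) and Adamts14 (0.20), and of these Loxl3 overlaps Htra2, which is on the other strand and was lower (-0.20).

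Other matrix genes followed. Of 34 listed 26 were tested, 18 were lower and 1, the laminin chain gene Lamb1, was higher at 0.14, and the median was -0.40. The shares over all tested genes were 12.9% lower and 13.0% higher. Fbn1, the microfibril protein fibrillin-1, stood at 98.5, 96.7 and 95 CPM in control and at 38.7, 38.3 and 36.9 CPM in co-treated libraries (-1.35 ± 0.07, edgeR adjusted p = 1.48e-14). Fbln5, an elastic fibre assembly gene, fell by 1.44 ± 0.09, the proteoglycan Bgn by 0.68 ± 0.04 and Thbs1, the matricellular protein thrombospondin-1, by 1.85 ± 0.14. Fn1, fibronectin, which stood at 4033 to 4184 CPM in control, fell by 0.55 ± 0.04. Dcn, decorin, and Vcan, versican, did not pass the test, at 0.02 and 0.03.

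Matrix-degrading enzymes did not rise as a group. Of 21 listed proteases 15 were tested, 6 were lower and 2 higher, and the median was -0.23. Of all tested genes 12.9% were lower and 13.0% higher, so the 2 higher are near the share over all genes. Adamts5, an aggrecanase, fell by 1.12 ± 0.07 from between 192 and 198 CPM to between 78.0 and 100 CPM, and its relative Adamts1 fell by 0.71 ± 0.05. Mmp2, gelatinase A, fell by 0.48 ± 0.04 and Mmp14, its membrane-bound activator, by 0.23. Mmp3, stromelysin-1, stood at 6.27, 4.66 and 3.83 CPM in control and at 6.65, 6.03 and 6.25 CPM in co-treated libraries. These groups overlap and the difference of 0.37 ± 0.17 did not pass the test (edgeR adjusted p = 0.124). Without control replicate 1, the library with the highest control value, it was 0.58 and passed (edgeR adjusted p = 0.0254). Mmp13, a collagenase, stood at no more than 0.442 CPM in any control or co-treated library and was too low to test. The lysosomal proteases Ctsl and Ctsb were the 2 that rose, by 0.33 and 0.26.

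Among 8 tested protease inhibitors 5 were lower and 2 higher, with a median of -0.35, beside 12.9% lower and 13.0% higher over all tested genes. Reck, a membrane inhibitor of metalloproteinases, fell by 0.85 ± 0.13, Serpinf1 by 0.48 ± 0.04 and Timp3 by 0.30 ± 0.05. Timp1, a soluble metalloproteinase inhibitor, was higher, at 23.8, 23.8 and 25.7 CPM in control and 29.3, 32.1 and 32.3 CPM in co-treated libraries (0.35 ± 0.08, edgeR adjusted p = 0.00121). It lies within Syn1, which is on the other strand at 12.4 CPM on average and had a value of -0.30 that did not pass the test.

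Contractile and mechanosensitive genes were lower or not called. The counts of this paragraph stand beside 13.0% higher and 12.9% lower over all tested genes. Serum response factor (SRF) drives contractile genes through the CArG box, and YAP carries signals of cell stretch and stiffness. Of 11 tested contractile genes 5 were lower and none higher, with a median of -0.11: beside Acta2 these were Cnn2 (-0.40), Tpm1 (-0.35), Cald1 (-0.32) and Vcl (-0.31). The cytoplasmic actins Actb and Actg1 stood at 0.05 and 0.11 and did not pass the test, and Tagln, Cnn1 and Myl9 were too low to test. Of 15 tested YAP targets 8 were lower and none higher, with a median of -0.21, led by F3, tissue factor (-0.96 ± 0.10), Dlc1 (-0.71 ± 0.12), Ankrd1 (-0.64 ± 0.09) and Amotl2 (-0.55 ± 0.08). In the TGF-β pathway, the main inducer of matrix genes in fibroblasts, 6 of 19 genes were higher and 3 lower. The receptor genes Tgfbr2 and Tgfbr3 fell by 0.69 ± 0.06 and 0.47 ± 0.04, the receptor gene Tgfbr1 rose by 0.34, and the inhibitors Smad7 and Smurf1 rose by 0.51 ± 0.09 and 0.43 ± 0.05.

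Sequences just before the start sites of Vcl and Cnn2, both lower in co-treated cells, are shown because a CArG box stands in each. They are read 5′ to 3′ on the gene's strand from RefSeq promoters of build GRCm38.p6, a build other than the mm39 of the count table, and the CArG box is in capitals. Vcl is at chr14:20929148-20929225 on the plus strand and Cnn2 at chr10:79988499-79988598 on the plus strand.
Vcl: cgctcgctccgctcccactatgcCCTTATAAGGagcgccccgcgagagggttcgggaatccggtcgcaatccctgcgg
Cnn2: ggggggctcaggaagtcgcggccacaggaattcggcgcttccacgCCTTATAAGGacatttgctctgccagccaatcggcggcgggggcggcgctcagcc
Within the 250 bases before the start, a CArG box was found on either strand in 6 of 14 listed contractile genes with a promoter entry, and in 1.62% of 27025 genes. The other 4 were Actg1 and Srf, which did not pass the test, and Myl9 and Fhl1, which were too low to test. Vcl overlaps Ap3m1 on the other strand, which at -0.06 did not pass the test.

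DNA repair genes were mostly not called. Over 5 lists (base excision, nucleotide excision, mismatch repair, homologous recombination and end joining) all 106 genes were tested, 12 were higher and 8 lower, against 25.8% called over all tested genes, and the median was -0.02. Ercc1, which with XPF forms an endonuclease of excision repair, had the largest change of all 106. It stood at 51.4, 51.5 and 48.1 CPM in control and at 87.7, 86.9 and 92.8 CPM in co-treated libraries, with no overlap (0.83 ± 0.07, edgeR adjusted p = 9.41e-11). UVA-only libraries stood at 88.8, 89.0 and 109 CPM, and the co-treated minus UVA-only difference was -0.10 (95% interval -0.23 to 0.02). Ercc1 lies at chr7:19078703-19090449 on the plus strand (mm39) and overlaps Cd3eap on the other strand, which stood at 26.5 CPM on average and at 0.06 did not pass the test.

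By pathway, base excision repair, which removes oxidised bases, had 2 lower genes of 22 and none higher, with a median of -0.11. Ogg1, the glycosylase for 8-oxoguanine, stood at 16.4, 16 and 18.6 CPM in control and at 17.6, 17.3 and 19.2 CPM in co-treated libraries, which overlap (0.08 ± 0.09, edgeR adjusted p = 0.57). The lower genes were the glycosylase genes Tdg (-0.31 ± 0.08) and Neil3 (-0.26 ± 0.09), of which Neil3 lost its call without control replicate 1 or 3 or co-treated replicate 2 or 3 (edgeR adjusted p = 0.0788 to 0.203). Tdg overlaps Glt8d2, which is on the other strand and was higher (0.85), and Ogg1 overlaps Camk1, likewise on the other strand (0.23). Nucleotide excision repair, the pathway for bulky lesions and ultraviolet photoproducts, together with translesion polymerases, had 4 higher and 2 lower genes of 30. The share called over all tested genes was 25.8%. Xpc, the damage sensor of nucleotide excision repair, stood at 20.4 to 21.9 CPM in control and 21.1 to 22.2 CPM in co-treated libraries (0.04 ± 0.08, edgeR adjusted p = 0.756). Rpa1, the large subunit of the single-strand binding protein, went from between 311 and 312 CPM to between 252 and 260 CPM (-0.28 ± 0.04, edgeR adjusted p = 1.45e-06).

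None of 8 mismatch repair genes was called, and their values ran from -0.21 for Pms1 to 0.16 for Msh3. Homologous recombination had 5 higher and 3 lower genes of 31, beside 25.8% called over all tested genes. Its largest decrease was that of Rad51c (-0.58 ± 0.11), and Nbn, of the break-sensing MRN complex, stood at 0.26 ± 0.07. End joining had 3 higher and 1 lower of 15, beside the same share over all tested genes, with Xrcc4, the ligase partner, at 0.37 ± 0.11. Xrcc4 overlaps Tmem167 on the other strand, which was more abundant (106 against 12.3 CPM on average), and it lost its call without control replicate 1 or co-treated replicate 1. Nbn lost its call without co-treated replicate 2 (0.20, edgeR adjusted p = 0.0675). The count of 20 called repair genes depends on single libraries: it was 8 without control replicate 3, 11 without control replicate 1, 11 without co-treated replicate 2 and 11 without co-treated replicate 3. The counts by pathway are small and moved with them. UVA-only cells had 8 higher and 13 lower repair genes against the same controls, where 29.3% of all tested genes were called. No repair gene was called between co-treated and UVA-only cells.

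Targets of p53 were higher more often than lower. Of 28 listed 24 were tested, 14 were higher and 3 lower, with a median of 0.18, and the background is 13.0% higher and 12.9% lower. Cdkn1a, the cell cycle inhibitor p21, stood at 92.1, 96.1 and 90.3 CPM in control and at 158, 178 and 197 CPM in co-treated libraries (0.94 ± 0.07, edgeR adjusted p = 5.91e-11). Mdm2, which marks p53 for breakdown, stood at 104, 103 and 114 CPM in control and at 178, 196 and 213 CPM in co-treated libraries (0.87 ± 0.06, edgeR adjusted p = 8e-12). Every co-treated library lay above every control library in both genes. Eda2r, the ectodysplasin A2 receptor, rose by 0.90 ± 0.08 and Ccng1, cyclin G1, by 0.63 ± 0.05. The lower targets were Ddit4 (-0.55), Sesn1 (-0.30) and Plk2 (-0.30). Gadd45a, another damage-inducible gene, stood at 19.6, 22.6 and 20.5 CPM in control and at 15.1, 13.4 and 12.2 CPM in co-treated libraries (-0.63 ± 0.10, edgeR adjusted p = 3.7e-05), so it went down while Cdkn1a went up.

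Cell cycle genes were called in both directions, mostly with small differences, where 13.0% of all tested genes were higher and 12.9% lower. Of 22 mitosis genes 5 were higher and 2 lower, at values from -0.18 to 0.17, and of 24 replication genes 5 were higher and 4 lower, with medians of 0.01 and 0.00. The 5 higher replication genes became 2 without control replicate 1, 2 or 3 or co-treated replicate 2 or 3. The 4 lower replication genes became 1 without control replicate 2 and 2 without control replicate 3 or co-treated replicate 1. The 5 higher mitosis genes became 3 without control replicate 3 or co-treated replicate 2, and the 2 lower became 1 without control replicate 1, 2 or 3 or co-treated replicate 3. Ccnd1, cyclin D1, had a larger difference, at 372, 380 and 381 CPM in control and 619, 677 and 720 CPM in co-treated libraries (0.83 ± 0.05, edgeR adjusted p = 1e-13). Of 21 damage checkpoint genes 4 were higher and 1 lower, at values from -0.18 to 0.22, beside 25.8% called over all tested genes. The 4 became 2 without control replicate 3 or co-treated replicate 3, and the 1 became 0 without control replicate 1, 2 or 3 or co-treated replicate 3 and 2 without UVA replicate 3. Among 20 apoptosis genes 6 were higher and 1 lower. They include both pro-survival genes, Cflar (0.49 ± 0.05) and Mcl1 (0.20 ± 0.04), and a pro-death gene, Bok (0.74 ± 0.11), and the lower one was Bmf (-1.23 ± 0.27), a pro-death BH3 gene at 3.64 to 4.88 CPM in control.

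NRF2 target genes were higher as a group. All 28 were tested, 18 were higher and none lower, and the median was 0.19. The shares over all tested genes were 13.0% higher and 12.9% lower. Nqo1, which reduces quinones, stood at 45.2, 41.8 and 40.0 CPM in control and at 63.8, 62.5 and 67.1 CPM in co-treated libraries (0.61 ± 0.08, edgeR adjusted p = 4.73e-07). Gclm and Gclc, the subunits of the enzyme that sets the rate of glutathione synthesis, rose by 0.59 ± 0.06 and 0.54 ± 0.06. Txnrd1, cytosolic thioredoxin reductase, stood at 458, 430 and 435 CPM in control and at 585, 587 and 575 CPM in co-treated libraries (0.40 ± 0.04, edgeR adjusted p = 2.67e-09). Control and co-treated libraries did not overlap in any of Nqo1, Gclm, Gclc and Txnrd1. Osgin1 rose most, by 0.98 ± 0.16, from between 4.02 and 4.88 CPM to between 7.82 and 9.45 CPM. The iron store gene Fth1 rose by 0.44 ± 0.05 and Esd, an S-formylglutathione hydrolase, by 0.51 ± 0.04.

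Several NRF2 targets stood otherwise in UVA-only cells. Hmox1, the haem-degrading enzyme haem oxygenase 1, stood at 25.0, 22.4 and 26.4 CPM in control, at 20, 22.5 and 20.3 CPM in UVA-only and at 28.4, 28.3 and 29.6 CPM in co-treated libraries. Against control it was 0.22 ± 0.08 higher with α-arbutin (edgeR adjusted p = 0.0404) and 0.24 lower without it (edgeR adjusted p = 0.0306). The increase against control does not hold throughout: it missed the threshold with DESeq2 (adjusted p = 0.063), with scaling by counts per exonic length (edgeR adjusted p = 0.0707) and with no filter on low counts (edgeR adjusted p = 0.0928). It also missed it without control replicate 1 or 2 or any 1 co-treated replicate, at 0.16 to 0.23 (edgeR adjusted p = 0.0617 to 0.22), and held without control replicate 3 (0.28, edgeR adjusted p = 0.0309). Slc7a11, the cystine importer, stood at 60.8, 57.7 and 60.7 CPM in control, at 44.5, 44.7 and 37.9 CPM in UVA-only and at 71.2, 59.5 and 55.3 CPM in co-treated libraries. Its co-treated libraries spread around the control level (0.05 ± 0.07, edgeR adjusted p = 0.667), while all UVA-only libraries lay below it (-0.50, edgeR adjusted p = 8.04e-06). On mm39 Hmox1 lies at chr8:75820249-75827217 (plus strand) and Slc7a11 at chr3:49846975-50398063 (minus strand). Slc48a1, a haem transporter, showed the same order, with 160 to 166 CPM in control, 133 to 146 CPM in UVA-only and 163 to 169 CPM in co-treated libraries.

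Directly tested, the co-treated minus UVA-only difference was 0.55 for Slc7a11 (95% interval 0.39 to 0.71, edgeR adjusted p = 0.00102), 0.46 for Hmox1 (0.29 to 0.63, edgeR adjusted p = 0.0153), 0.27 for Slc48a1 (0.18 to 0.36, edgeR adjusted p = 0.00684) and 0.25 for Txnrd1 (0.17 to 0.32, edgeR adjusted p = 0.00327). These are 4 of the 5 genes called in that test and all are on the NRF2 list. Slc48a1 overlaps Hdac7, which is on the other strand and was 0.21 lower than control in co-treated cells. Without co-treated replicate 2 only Slc7a11 of these 4 kept its call, and without co-treated replicate 3 Hmox1 and Slc48a1 lost theirs, as they did without UVA replicate 1. The list was chosen with earlier results of these data known, so its part among these calls is a description. In the same test, Nqo1 at 0.35 (95% interval 0.20 to 0.51, edgeR adjusted p = 0.123) and Esd at 0.19 (0.11 to 0.27, edgeR adjusted p = 0.091) did not pass the test. Nqo1 passed with DESeq2 (adjusted p = 0.0492), with no filter on low counts (edgeR adjusted p = 0.000185) and without UVA replicate 3 (0.49, edgeR adjusted p = 0.000832). Esd passed with DESeq2 (adjusted p = 0.00648), limma-voom (adjusted p = 0.0447), scaling by counts per exonic length (edgeR adjusted p = 0.016) and no filter on low counts (edgeR adjusted p = 0.00722), and without UVA replicate 3 (edgeR adjusted p = 0.0116) or co-treated replicate 1 (edgeR adjusted p = 0.0438). Both genes also passed with the replicate number as a block (edgeR adjusted p = 0.012 for Nqo1 and 0.016 for Esd). Over the whole list the median difference was 0.14, with 23 of 28 values above 0, against a median of 0.00 over all tested genes. UVA-only cells against control had 16 higher and 5 lower targets with a median of 0.14, where 29.3% of all tested genes were called. The fifth gene was Rn7sk, the 7SK RNA that holds back transcription elongation, which was lower (-0.93, 95% interval -1.25 to -0.61, edgeR adjusted p = 0.00684). It stood at 5.11 to 7.44 CPM in control, 7.72 to 8.47 CPM in UVA-only and 4.09 to 4.45 CPM in co-treated libraries. It has many near-identical copies in the genome, and as an RNA without a poly(A) tail its level depends on how RNA was selected, which is not stated.

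**Figure D4:**
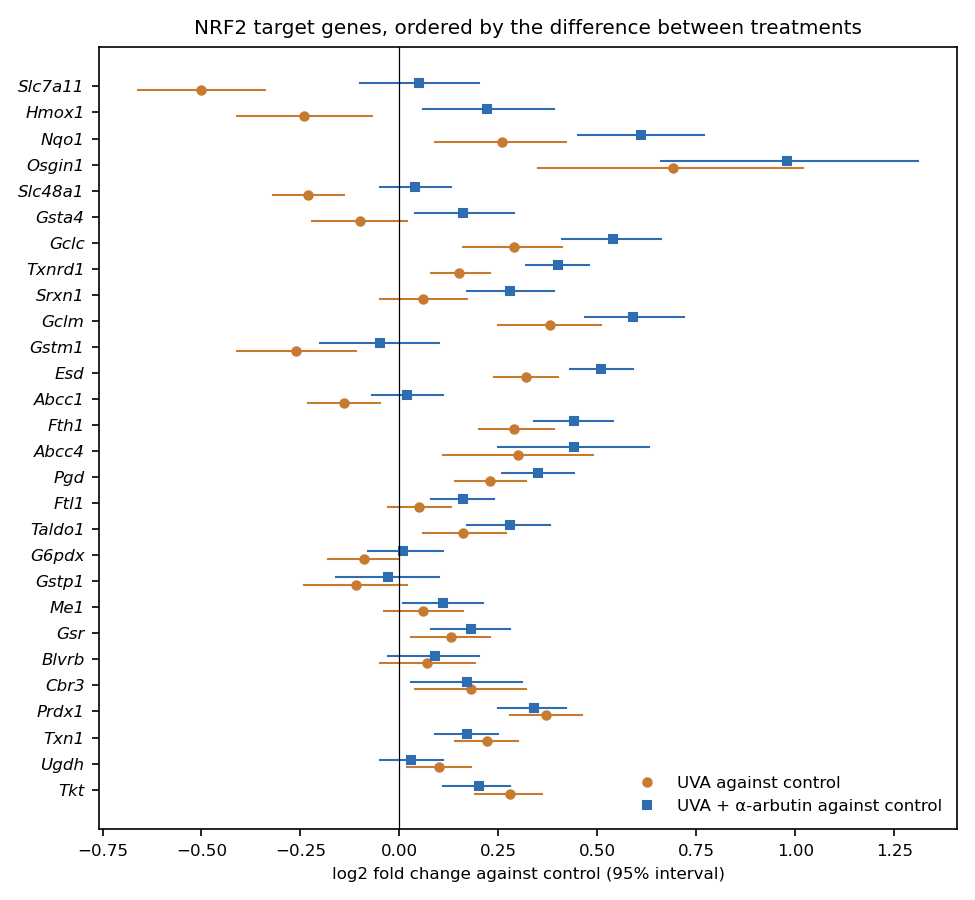
Log2 fold change against control with 95% interval for each of 28 NRF2 target genes, in UVA-only cells (circles) and co-treated cells (squares), ordered by the difference between them. Slc7a11 and Hmox1, at the top, lie below 0 in UVA-only cells, and in co-treated cells stand at 0.05 and 0.22.

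The antioxidant response element searched for was TGACNNNGC on either strand, in the 250 bases before the start. It was found in 6 of 22 listed NRF2 targets with a promoter entry and in 11.5% of 27025 genes. The sequences around it in Txnrd1 and Gclm are shown because both genes were called higher, with the element in capitals, here on the opposite strand to the gene. Build, source and direction are as above, and the regions are chr10:82859069-82859167 (plus strand) and chr3:122245378-122245476 (plus strand).
Txnrd1: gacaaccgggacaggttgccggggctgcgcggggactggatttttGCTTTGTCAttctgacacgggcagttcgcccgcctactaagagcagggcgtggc
Gclm: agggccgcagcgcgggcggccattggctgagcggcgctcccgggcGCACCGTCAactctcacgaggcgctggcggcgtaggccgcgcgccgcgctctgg
The other matches were in Prdx1, Ugdh, Abcc4 and G6pdx, of which Ugdh and G6pdx did not pass the test.

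Among other antioxidant enzymes 7 of 22 tested were higher and 2 lower, beside 13.0% higher and 12.9% lower over all tested genes. Gpx1, a glutathione peroxidase, stood at 14.7, 14.0 and 15 CPM in control and at 30.9, 28.6 and 29.4 CPM in co-treated libraries, a rise of 2.03-fold (1.02 ± 0.09, edgeR adjusted p = 2.05e-10). Prdx3, the mitochondrial peroxiredoxin, went down, by 0.40 ± 0.05. UVA-only cells had a Gpx1 level of 27.8 to 32.7 CPM. Metal-binding genes rose too: Mt2 by 0.56 ± 0.08, Mt1 by 0.32 ± 0.06 and the zinc exporter Slc30a1 by 0.51 ± 0.09. In the group of the aryl hydrocarbon receptor, a sensor of aromatic compounds, Ahr itself stood at 16.6, 14.4 and 14.5 CPM in control, 21.9, 16.9 and 24.4 CPM in UVA-only and 27.1, 27.1 and 27.9 CPM in co-treated libraries. The rise against control was 0.86 ± 0.10 (edgeR adjusted p = 1.97e-07). The co-treated libraries lay above all UVA-only libraries, but that difference of 0.37 did not pass the test (edgeR adjusted p = 0.351), and it passed without UVA replicate 3 (0.49, edgeR adjusted p = 0.0327). Its partner Arnt fell by 0.49 ± 0.05 and its target Cyp1b1 by 2.34 ± 0.42, at 1.74 to 2.63 CPM in control. Aldh3a1, of the same group, was higher, by 0.94 to 1.36 when 1 library was left out. Of the 5 tested genes of this group 3 were higher and 2 lower.

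Targets of ATF4, the factor of the amino acid and integrated stress response, were mostly lower. Of 26 tested 19 were lower and 3 higher, with a median of -0.26, beside 12.9% lower and 13.0% higher over all tested genes. Aldh1l2, a mitochondrial folate enzyme, stood at 336, 315 and 335 CPM in control and at 220, 226 and 202 CPM in co-treated libraries (-0.61 ± 0.05, edgeR adjusted p = 3.04e-10). Asns, asparagine synthetase, stood at 353, 349 and 350 CPM in control and at 272, 271 and 264 CPM in co-treated libraries (-0.38 ± 0.04, edgeR adjusted p = 1.55e-08). Both were lower in each co-treated library, and Aldh1l2 overlaps Nopchap1 on the other strand, which at 0.08 did not pass the test. The amino acid transporter Slc7a5 fell by 0.52 ± 0.06 and the serine synthesis gene Psat1 by 0.37 ± 0.04, while Atf4 itself was 0.11 lower (edgeR adjusted p = 0.0407). UVA-only cells had 20 lower and 1 higher with a median of -0.29, where 29.3% of all tested genes were called against control. The 3 higher members in co-treated cells were Sesn2, Slc7a1 and Cars, at 0.13 to 0.17, and none or 1 of the list was called higher without control replicate 1, 2 or 3 or co-treated replicate 1 or 2.

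The amino acid response element TGATGNAA, searched on either strand, was found in 5 of 21 ATF4 targets with a promoter entry and in 3.91% of 27025 genes. It is in capitals in Asns and Nupr1, both lower here, at chr6:7693210-7693277 and chr7:126625528-126625625 (both minus strand, GRCm38.p6), and in Nupr1 it stands on the opposite strand to the gene.
Asns: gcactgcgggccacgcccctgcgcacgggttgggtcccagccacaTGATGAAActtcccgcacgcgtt
Nupr1: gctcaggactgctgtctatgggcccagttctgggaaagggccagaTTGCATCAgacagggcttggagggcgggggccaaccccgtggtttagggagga
Nupr1, a stress-induced chromatin protein gene, fell by 0.45 ± 0.07. The other matches were in Chac1, Aars and Vldlr, of which Vldlr was too low to test.

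Protein folding genes were divided. Of 18 tested ER chaperone genes 6 were lower and 3 higher, with a median of 0.00 and values from -0.52 to 0.26. Over all tested genes 12.9% were lower and 13.0% higher. The lower genes included Xbp1, a factor of the unfolded protein response (-0.52 ± 0.05), Sel1l, of ER-associated degradation (-0.36 ± 0.05), and Hspa5, the chaperone BiP (-0.19 ± 0.04). Of 14 tested cytosolic heat shock genes 7 were higher and none lower. Cryab, a small heat shock protein, stood at 77.4, 74.4 and 79.4 CPM in control and at 106, 121 and 110 CPM in co-treated libraries (0.55 ± 0.05, edgeR adjusted p = 3.16e-09), with UVA-only libraries at 124, 125 and 131 CPM. The co-treated Cryab libraries thus lay between the other groups without overlap, but the co-treated minus UVA-only difference of -0.17 did not pass the test (edgeR adjusted p = 0.507).

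Genes of glycolysis and of the hypoxia response were lower as a group. Of 27 tested 18 were lower and 1 higher, with a median of -0.21, beside 12.9% lower and 13.0% higher over all tested genes. Bnip3, a mitophagy receptor induced by hypoxia, stood at 52.8, 66.1 and 71.3 CPM in control and at 29.5, 24.5 and 22.7 CPM in co-treated libraries (-1.32 ± 0.09, edgeR adjusted p = 8.35e-12). Pdk1, a pyruvate dehydrogenase kinase, stood at 77.2, 86.6 and 85.5 CPM in control and at 34.3, 36.4 and 35.5 CPM in co-treated libraries (-1.23 ± 0.07, edgeR adjusted p = 1.9e-14). The groups lay well apart in both genes. Decreases of the glycolytic enzymes themselves were smaller, at 0.73 ± 0.05 for Pfkl, 0.54 ± 0.04 for Tpi1 and 0.31 ± 0.03 for Ldha, while Pgk1 and Pkm, both at -0.05, did not pass the test. Pfkfb3, which makes an activator of glycolysis, was the 1 higher member (0.41 ± 0.10). UVA-only cells had 15 lower and 1 higher, with a median of -0.22, where 29.3% of all tested genes were called against control.

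The core of the hypoxia response element, ACGTG, was searched on either strand and found in 15 of 25 listed genes with a promoter entry and in 18.5% of 27025 genes. Bnip3 and Ldha are shown because both fell and hold CACGTG, which matches on both strands, with all matches in capitals. They lie at chr7:138909564-138909659 (minus strand) and chr7:46845614-46845803 (plus strand), GRCm38.p6.
Bnip3: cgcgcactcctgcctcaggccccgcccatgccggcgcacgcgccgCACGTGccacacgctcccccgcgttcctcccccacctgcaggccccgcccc
Ldha: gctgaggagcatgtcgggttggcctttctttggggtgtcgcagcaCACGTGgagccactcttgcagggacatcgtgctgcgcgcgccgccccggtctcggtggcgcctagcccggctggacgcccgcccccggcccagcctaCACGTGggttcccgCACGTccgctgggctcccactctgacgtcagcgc
Pgk1 and Pkm, which did not pass the test, also hold the core, as does Pfkfb3, which was higher.

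Early response and inflammatory genes leaned higher, where 13.0% of all tested genes were higher and 12.9% lower. Of 26 tested immediate early genes 15 were higher and 4 lower, with a median of 0.24. The MAP kinase phosphatase genes Dusp4 and Dusp6 rose by 0.98 ± 0.05 and 0.82 ± 0.06, while Dusp1 (-0.77 ± 0.08) and the AP-1 gene Jund (-0.81 ± 0.09) fell. Dusp1 overlaps Ergic1, which is on the other strand, more abundant (282 against 60.4 CPM on average) and was also lower (-0.34). Fos, at no more than 1.04 CPM, did not pass the test. Of 19 tested inflammatory genes 9 were higher and 3 lower, with a median of 0.34. Nfkbia, the inhibitor of NF-κB, rose by 0.61 ± 0.07, the prostaglandin E synthase gene Ptges by 0.47 ± 0.05 and the chemokine gene Ccl2 by 0.34 ± 0.04. Csf1, the macrophage growth factor, fell by 0.59 ± 0.05, from between 488 and 494 CPM to between 308 and 344 CPM. Il33 and Il6, both under 5 CPM in each library, moved in opposite directions, at 1.67 ± 0.25 and -1.85 ± 0.54. Of 11 tested interferon genes 3 were lower and 1 higher, beside 12.9% lower and 13.0% higher over all tested genes.

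Of 26 lysosomal and autophagy genes, 11 rose and 2 fell, where 13.0% of all tested genes were higher and 12.9% lower. Gpnmb, a lysosomal glycoprotein, rose by 0.77 ± 0.05, the hexosaminidase gene Hexa by 0.50 ± 0.05, the autophagy receptor Sqstm1 by 0.43 ± 0.05 and cathepsin D, Ctsd, by 0.39 ± 0.04. Lipid synthesis genes were divided, with 5 higher and 6 lower of 21, and 3 lower without control replicate 3 or co-treated replicate 3. Fasn, fatty acid synthase, stood at 530, 494 and 540 CPM in control and at 859, 924 and 863 CPM in co-treated libraries (0.76 ± 0.04, edgeR adjusted p = 4.6e-14). Among 20 tested growth factor genes 6 were higher and 9 lower: Hbegf, an EGF receptor ligand, rose by 0.82 ± 0.08. The 6 higher became 3 without control replicate 2 or 3. Igf1, insulin-like growth factor 1, stood at 4.07, 4.10 and 3.21 CPM in control and at 0.366, 0.406 and 0.663 CPM in co-treated libraries (-2.95 ± 0.34, edgeR adjusted p = 1.06e-07), so its fall rests on few counts. Of 18 tested clock genes 3 were lower and 1 higher, beside 25.8% called over all tested genes. Hlf, an output factor of the clock, had the largest difference (-1.67 ± 0.13). The 1 higher gene became 0 without control replicate 1, 2 or 3 or co-treated replicate 3, and 2 without UVA replicate 1 or 3.

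Mitochondrially encoded genes were higher in 6 of 13 cases, by 0.11 to 0.27, with mt-Cytb the largest (0.27 ± 0.04). Over all tested genes 13.0% were higher and 12.9% lower in co-treated cells against control. Of 31 cytosolic ribosome genes 8 were higher and 2 lower, with a median of 0.07. UVA-only cells had 25 higher and none lower with a median of 0.13, where 29.3% of all tested genes were called against control. In the direct test no ribosome gene was called, and all 31 had a co-treated minus UVA-only difference of 0 or below, with a median of -0.06. The 8 higher ribosome genes became 3 when libraries were scaled by counts per exonic length, 3 without control replicate 1 or co-treated replicate 2, 5 without control replicate 2 or co-treated replicate 3, and 4 without control replicate 3.

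**Figure D5:**
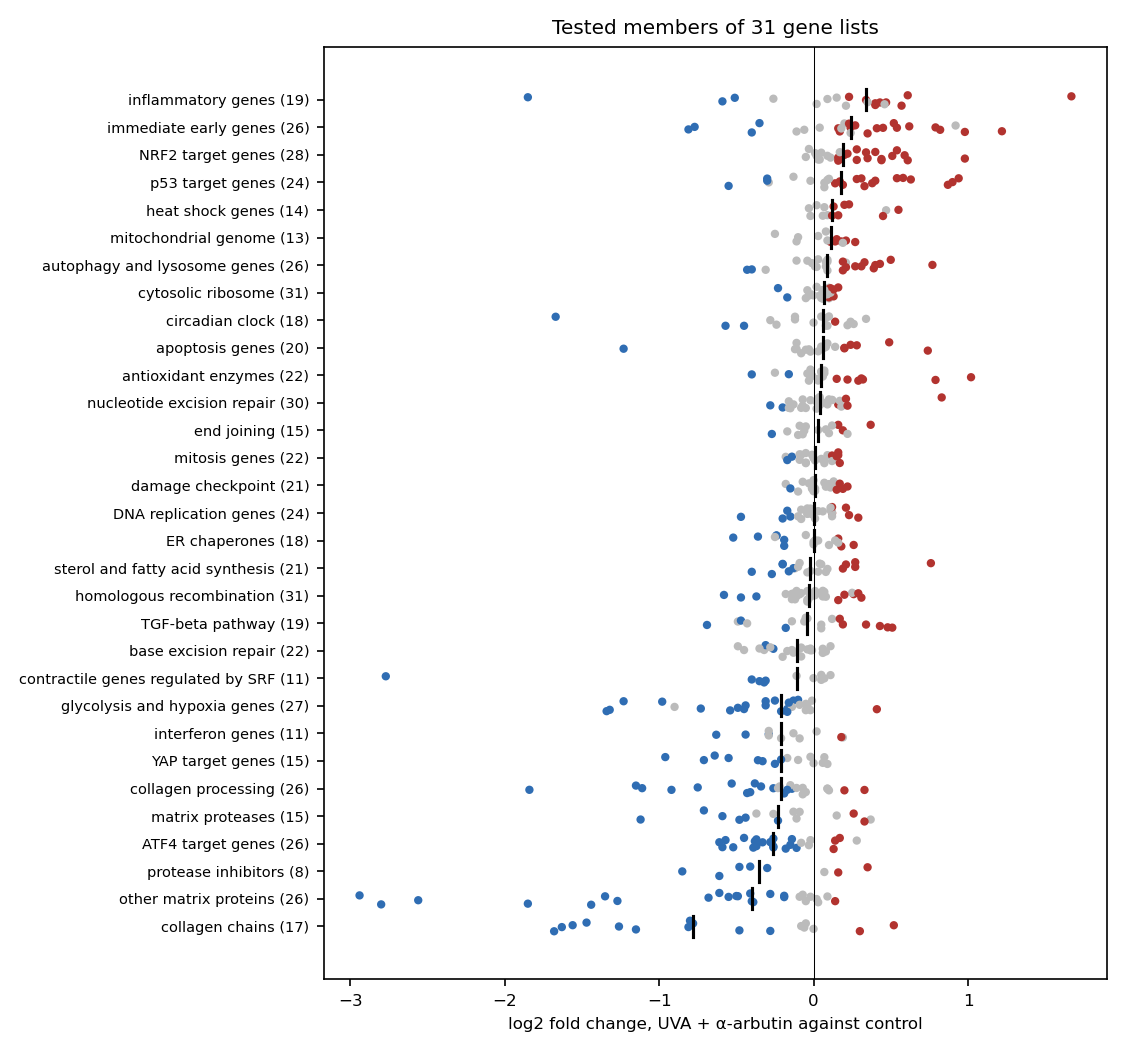
Each point is a tested member of 1 of 31 gene lists (tested members in brackets), placed by its log2 fold change of co-treated against control cells; red and blue points were called higher and lower, grey points were not called, and the black bar is the list's median. Collagen chains have the lowest median, at -0.78, and inflammatory genes the highest, at 0.34, among the lists drawn.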

How the data were processed

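RNA-seq of NIH/3T3 cells was deposited as 1 table that holds, per the file headers, the raw count of every gene in 9 libraries and its FPKM. The authors' counts are whole numbers, 1 per gene and library. Tools listed without a role are, per the submitters' processing notes, HTSeq 0.6.1, HISAT2 2.2.1, bcl2fastq 2.20.0.422 and cutadapt 1.9.1, with the build mm39. The deposited FPKM values matched count over exonic size and table total within 0.01 for 510219 of 510219 values. For the enrichment of RNA, strandedness and annotation release, the value is not given in the sources used here. Columns with the prefix NC were assigned to the control samples because the other prefixes match the other titles. Table coordinates are on mm39; promoters are RefSeq's on GRCm38.p6.

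Genes were tested with edgeR 4.0.16 in R 4.3.3 (filterByExpr, TMM scaling with factors of 0.992 to 1.0073, quasi-likelihood F-test, two-sided) on group alone over all 9 libraries, with Benjamini-Hochberg adjustment over 14151 genes and a threshold of 0.05. The test was first checked on simulated counts. Errors after ± are standard errors of the fitted log2 fold changes (n = 3 libraries a group). Replicates of a group differed by more than sampling noise, and none had identical values. Depth limits precision most for genes at a few CPM. Genes without a symbol (2639) stayed in the table and held at most 0.1181% of counts. DESeq2 1.42.0, limma-voom (limma 3.58.1), other scalings and filters, a replicate block and leaving out each library were alternatives.

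Gene lists are described by counts and medians only. Members, lists and named genes were chosen with earlier results of these data known. Named genes are the 8 largest changes each way among called genes without overlap and with at least 5 CPM in the higher group (provisional symbols passed over), the 4 or fewer smallest p-values per list, 15 genes fixed by name and all genes called against UVA-only cells; not all are described. List members named beyond these were chosen after their values were seen.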

Additional observations from a re-analysis of the deposited data

Results flagged for a closer look

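In 5 genes the effect against control differed between co-treated and UVA-only cells, by the direct test of co-treated against UVA-only libraries (edgeR adjusted p under 0.05, 5 of 14151 genes). The difference on the log2 scale was 0.55 for Slc7a11, 0.46 for Hmox1, 0.27 for Slc48a1, 0.25 for Txnrd1 and -0.93 for Rn7sk, and in each the 3 co-treated libraries lay on 1 side of the 3 UVA-only libraries. Slc7a11 and Slc48a1 were called lower than control in UVA-only cells and not called in co-treated cells. Hmox1 was called lower than control in UVA-only cells and higher in co-treated cells, and the latter call was lost in several alternative runs. Txnrd1 was called higher than control in both, and Rn7sk was called lower than control in co-treated cells and not called in UVA-only cells. That call of Rn7sk against control was lost without control replicate 1 (-0.46, edgeR adjusted p = 0.0618). Without the test's adjustment, 957 genes had a p under 0.05, 515 higher and 442 lower. Slc7a11 kept its call in each alternative run. Hmox1 and Slc48a1 lost it without UVA replicate 1, co-treated replicate 2 or co-treated replicate 3, Txnrd1 without co-treated replicate 2, and Rn7sk without co-treated replicate 2 or 3.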

How the results depend on the processing

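Signs were compared across alternatives for the named genes only, and no called value among them changed sign. Some values that did not pass the test did, among them Slc7a11 against control (-0.06 to 0.13 when 1 library was left out) and the co-treated minus UVA-only differences of Col1a1 (-0.08 to 0.14) and Col1a2 (-0.06 to 0.12). Genes called higher numbered 1373 to 1919 and lower 1401 to 1955 when 1 library was left out, and collagen chains called lower 10 to 11. DNA repair genes called numbered 20, 13 with no filter on low counts, and 8 to 20 when 1 library was left out. Genes called between co-treated and UVA-only cells numbered 5, 10 with DESeq2 and 29 with no filter on low counts; without UVA replicate 3 they were 22, without UVA replicate 2 they were 8, without co-treated replicate 3 they were 2 and without co-treated replicate 2 there was 1. Replicate numbers are shared by the groups, but same-numbered libraries deviated together only weakly (correlations of -0.009 to 0.076), and the main fit did not pair them. Between co-treated and UVA-only libraries the correlations were 0.039 to 0.076 for the same number and -0.071 to 0.026 for different numbers. Whether the numbers mark a pairing was not tested. A fit with the replicate number as a block called 1968 higher and 1962 lower genes against control, and 19 genes between co-treated and UVA-only cells. Scaling by counts per exonic length gave 1468 higher and 2145 lower genes. The causes of these changes were not tested. Small changes and genes of a few CPM are limited by depth and by 3 libraries a group.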

Other observations

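The share of genes called lower grew with the span of the gene on the genome. It was 6.08% of 3042 genes that span less than 5000 bases, 15.5% of 5278 genes of 20000 to 100000 bases, 24.6% of 467 genes of 200000 to 500000 bases and 31.6% of 95 genes of 500000 bases or more. The share called higher was 7.82%, 14.5%, 14.3% and 12.6% in the same classes, and the median log2 fold change went from 0.01 in the shortest to -0.10 in the longest class. Level and exonic size differ between these classes, and their part in this was not tested. Over exonic sizes, the share called lower was 3.77% under 1000 bases and 18.7% at 8000 bases or more, and the share called higher 6.69% and 15.2%.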
